A study of Ambystoma mexicanum with 20 samples.

Results

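Matrix metalloproteinases (MMPs) are zinc-dependent enzymes that cut the proteins of the extracellular matrix. MMP2 and MMP9 are the gelatinases, which cleave denatured collagen and the type IV collagen of basement membranes, and MMP13 is a collagenase, which cleaves intact fibrillar collagen. All are made as inactive proenzymes, MMP14 at the cell surface activates proMMP2, and TIMP proteins and the membrane protein RECK hold the active enzymes in check. In salamander limbs, MMP expression accompanies the opening of the stump matrix after amputation and the formation of the blastema, the mass of progenitor cells that rebuilds the limb. In mammals MMP9 is made mainly by neutrophils, macrophages, osteoclasts and migrating keratinocytes, MMP2 mainly by fibroblasts, and MMP13 by hypertrophic chondrocytes, osteoblasts and migrating keratinocytes.

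The transcripts described here were those that the lists published with the study name MMP2, MMP9 or MMP13. Of 180605 transcripts in the table, 4778 had a symbol in those lists, and 6 of these were members: 1 of MMP2 (AMEXTC_0340000029285), 1 of MMP9 (AMEXTC_0340000145151) and 4 of MMP13. The MMP13 transcripts are called MMP13-A (AMEXTC_0340000163558), MMP13-B (AMEXTC_0340000060502), MMP13-C (AMEXTC_0340000193703) and MMP13-D (AMEXTC_0340000193704), in falling order of their mean level. A further 2 transcripts carry the name in lower case, mmp13, and were kept apart. All 6 members passed the filter on low values in both tissues. The symbols came from transcripts that the study had listed as changed over time in the DMSO samples, so the DMSO time course is given below as a description, without a test. No sequences or genome positions of these transcripts were used here, so whether the 4 MMP13 transcripts are separate genes, variants or fragments of 1 gene was not analysed, and reads shared between them could have been divided unevenly.

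RNA was sequenced from the epidermis and the underlying soft tissue (ST) of forelimb stumps of juvenile axolotls (Ambystoma mexicanum). Limbs were injected every other day after amputation, beneath the wound epidermis, with 2 µl of 25 mM MS-275, an inhibitor of class I histone deacetylases, or with the vehicle DMSO, and tissue was taken at 3 days post-amputation (dpa), in wound healing, and at 8 dpa, when the blastema forms. The 0 dpa samples were collected directly after amputation and carry the DMSO label. There were 5 groups per tissue (3 dpa MS-275, 8 dpa MS-275, 3 dpa DMSO, 8 dpa DMSO and 0 dpa) with 2 replicates each, 20 samples in all, and each replicate pooled limbs of more than 1 animal. The injected inhibitor is not directed to a single deacetylase or cell type.

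Values are TPM, a measure of transcript abundance that is corrected for transcript length and scaled to the same total in each sample, so the sequencing depth is unknown and a level near 0 has no stated floor. Between 72566 and 92979 transcripts were above 0 in a sample. Fold changes are differences of log2(TPM + 0.1), tested with limma over all transcripts that passed the filter, and a transcript was called at an adjusted p (Benjamini-Hochberg) under 0.05. With 2 replicates a group, an exact permutation test of a single transcript cannot go below p = 0.333. The 8 dpa DMSO replicates of ST lay closest together, with a median absolute log2 ratio of 0.102 over 5835 transcripts, against 0.168 to 0.488 in the other groups. In bulk tissue, a change in the number of cells that express a gene cannot be told apart from a change in RNA per cell.

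In DMSO limbs, levels of all 3 enzymes were low at 0 dpa in both tissues and highest at 8 dpa in ST. MMP2 in ST stood at 33.5 and 42.0 TPM at 0 dpa, at 50.0 and 70.0 TPM at 3 dpa and at 233 and 220.4 TPM at 8 dpa. MMP9 in ST stood at 3.12 and 3.33 TPM at 0 dpa, at 55.1 and 174 TPM at 3 dpa and at 448 and 421 TPM at 8 dpa. The 3 dpa replicates of MMP9 differed from each other by a larger ratio than the higher of them did from either 8 dpa replicate. MMP13-A in ST was listed at 0.18 and 0 TPM at 0 dpa, at 37.8 and 24.4 TPM at 3 dpa and at 232 and 245 TPM at 8 dpa. The gelatinase MMP2 was therefore already measurable in the intact limb, while MMP9 was at a few TPM and MMP13 near 0.

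Epidermis means of MMP2, MMP9 and MMP13-A followed the same order of times, at lower levels from 3 dpa on. MMP2 in epidermis was at 19.4 and 21.4 TPM at 0 dpa, at 19.96 and 36.0 TPM at 3 dpa and at 63.2 and 62.0 TPM at 8 dpa. MMP9 in epidermis was at 2.82 and 5.19 TPM at 0 dpa, at 15.4 and 26.3 TPM at 3 dpa and at 24.4 and 30.6 TPM at 8 dpa, so that the 3 and 8 dpa samples overlapped. MMP13-A in epidermis was at 0.93 and 0.62 TPM at 0 dpa, at 5.14 and 13.1 TPM at 3 dpa and at 107 and 148 TPM at 8 dpa. All 6 members were higher in both 8 dpa DMSO samples than in both 0 dpa samples in each tissue, which also held for 57.4% of all transcripts tested in ST and 38.6% in epidermis. Because these comparisons were a source of the symbols, nothing is read from that count.

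**Figure D1:**
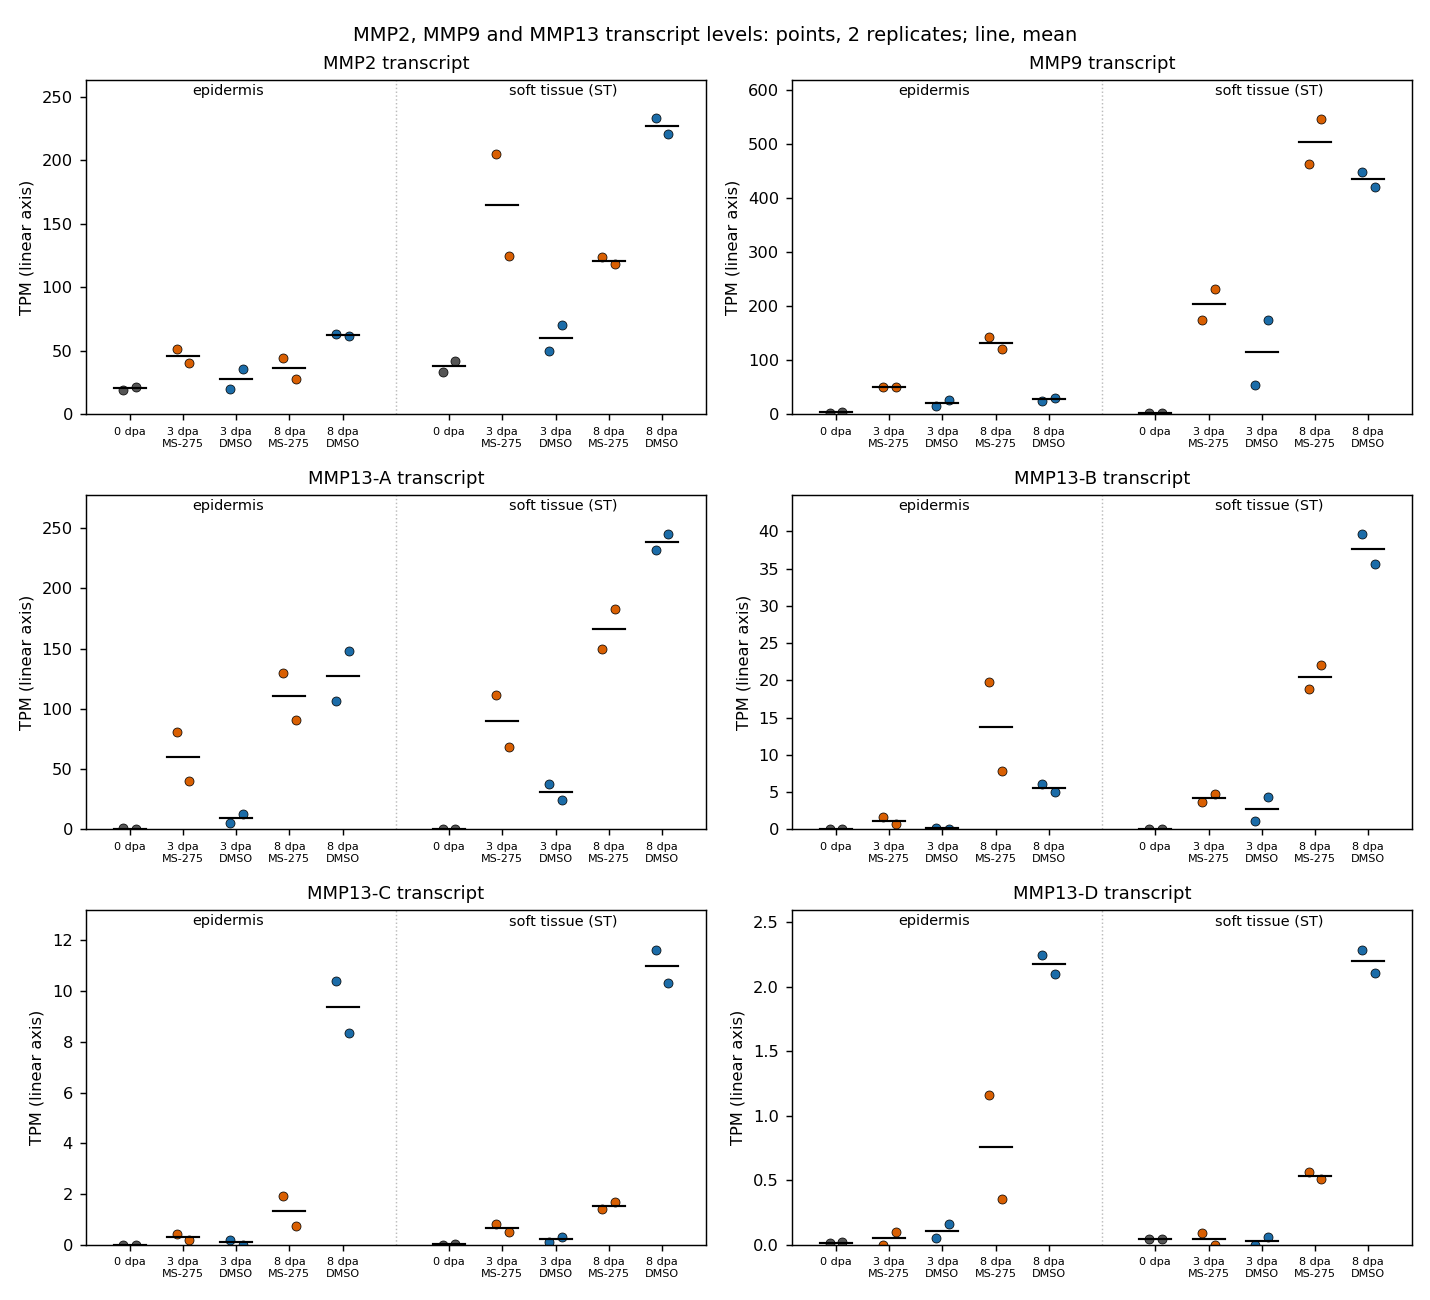
TPM (linear axis, a different scale in each panel) of the 6 MMP transcripts in epidermis (left of the dotted line) and ST (right), with 2 replicates as points and their mean as a line, MS-275 in orange, DMSO in blue and 0 dpa in grey. In ST at 3 dpa MMP2 reached 205 and 125 TPM with MS-275, against 50.0 and 70.0 TPM with DMSO, and in epidermis at 8 dpa MMP9 reached 143 and 122 TPM with MS-275, against 24.4 and 30.6 TPM with DMSO.

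The DMSO samples at 3 and 8 dpa are also those of the lists that gave the symbols. The comparisons with them below are therefore not independent of how the members were chosen, and nothing is read from counts or medians of members in them. The related genes and cell type markers named below took their symbols from the same lists. The same limit holds for their counts and medians. The first of these comparisons asked what MS-275 did to the enzymes in ST at 3 dpa, while the wound heals. MMP2 rose: it stood at 205 and 125 TPM in MS-275 limbs, against 50.0 and 70.0 TPM in DMSO limbs, a 2.70-fold difference (log2 fold change 1.44, SE 0.28, limma adjusted p = 0.0353). Both MS-275 values lay above both DMSO values, and the MS-275 mean (165 ± 56.8 TPM, SD, n = 2) was below that of 8 dpa DMSO ST (227 ± 9.08 TPM, SD, n = 2). MMP2 was the only 1 of the 6 members called, against 3.48% of all transcripts called in either direction and 2.86% called higher. The symbol of MMP2 came only from its change from 3 to 8 dpa in DMSO ST, so this test uses values that chose it. The median log2 fold change of the 6 was 1.19, against 0.09 over all transcripts tested.

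MMP9 stood at 175 and 232 TPM in MS-275 ST at 3 dpa, against 55.1 and 174 TPM in DMSO ST (log2 fold change 1.04, SE 0.46, limma adjusted p = 0.249). The lower MS-275 replicate lay only just above the higher DMSO replicate, so the groups were separated by less than the spread within DMSO. MMP13-A was at 111 and 68.0 TPM with MS-275, against 37.8 and 24.4 TPM with DMSO (log2 fold change 1.52, SE 0.47, limma adjusted p = 0.120). MMP13-C was at 0.82 and 0.49 TPM with MS-275, against 0.11 and 0.30 TPM with DMSO, and MMP13-B at 3.64 and 4.78 TPM, against 1.13 and 4.33 TPM. MMP13-D was at 0.09 and 0 TPM with MS-275 and at 0 and 0.06 TPM with DMSO, too low for a comparison. The groups did not overlap, with MS-275 higher, for 4 members (MMP2, MMP9, MMP13-A and MMP13-C), which held for 27.2% of all transcripts.

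Both the MMP2 call and the values of MMP9 in this comparison turned on single libraries. The adjusted p of MMP2 was 0.0565 after rescaling the TPM by median ratios and 0.151 without DMSO replicate 1. Without DMSO replicate 2, the library with 174 TPM of MMP9, MMP9 (limma adjusted p = 0.0132) and MMP13-B (limma adjusted p = 0.0274) passed the threshold. The composition of the ST samples also differed at this time. The summed level of epidermis markers (keratins and junction genes) was 1106 and 3039 TPM in MS-275 ST, against 62.45 and 155 TPM in DMSO ST, with 20 of 21 marker transcripts tested called higher and none of the 12 marker genes at 0 throughout. MMP2 in epidermis at 3 dpa with MS-275 was at 51.8 and 40.7 TPM. The summed fibroblast markers were at 6032 and 4673 TPM in MS-275 ST, against 2245 and 3531 TPM in DMSO ST, with 0 of 11 called, and the muscle markers at 4765 and 4010 TPM, against 22452 and 8480 TPM, with 1 of 17 called lower. The part of the epidermis, fibroblast and muscle markers in the MMP values was not tested.

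In epidermis at 3 dpa, no member passed the threshold. Both MS-275 samples lay above both DMSO samples for 5 of 6 members and for 29.1% of all transcripts. The 3 dpa DMSO samples were a source of the symbols, so nothing is read from that count. MMP13-A showed the widest gap: 80.9 and 40.0 TPM with MS-275, against 5.14 and 13.1 TPM with DMSO (6.85-fold, log2 fold change 2.78, SE 0.49, limma adjusted p = 0.0585). MMP9 was at 51.3 and 51.0 TPM with MS-275, against 15.4 and 26.3 TPM with DMSO (2.54-fold, log2 fold change 1.34, SE 0.33, limma adjusted p = 0.122). MMP2 was at 51.8 and 40.7 TPM with MS-275, against 19.96 and 36.0 TPM with DMSO (log2 fold change 0.77, SE 0.31, limma adjusted p = 0.299). MMP13-B was at 1.69 and 0.69 TPM with MS-275, against 0.26 and 0.10 TPM with DMSO, and MMP13-C at 0.41 and 0.20 TPM, against 0.18 and 0 TPM. After adjustment 0.418% of all transcripts were called in this comparison. Without adjustment 4 of the 6 members had a limma p under 0.05. That rule is looser than the one behind the 0.418%, so they are not compared.

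The MMP13-A difference in epidermis at 3 dpa lay on the edge of the threshold. Its adjusted p was 0.0222 with all 20 samples in 1 model and 0.0359 with transcripts under a mean of 1 TPM left out, but 0.104 without the variance trend and 0.288 without MS-275 replicate 1. Without single samples its log2 fold change ranged from 2.11 to 3.44. The leukocyte markers summed to 1141 and 1333 TPM in MS-275 epidermis, against 802 and 868 TPM in DMSO epidermis, with 3 of 30 called higher. The epidermis markers summed to 12999 and 11049 TPM with MS-275, against 4204 and 8703 TPM with DMSO, with 0 of 22 called, and the cartilage markers to 96.8 and 74.8 TPM, against 35.8 and 70.7 TPM, with 0 of 16 called. The part of these markers in the MMP values was not tested.

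At 8 dpa, when the blastema forms, epidermis gave the strongest treatment response of MMP9. MMP9 rose to 143 and 122 TPM in MS-275 epidermis, against 24.4 and 30.6 TPM in DMSO epidermis, a 4.82-fold difference (log2 fold change 2.27, SE 0.33, limma adjusted p = 0.00805). MMP13-C fell to 1.90 and 0.73 TPM in MS-275 epidermis, against 10.4 and 8.36 TPM in DMSO epidermis, 7.32-fold lower (log2 fold change -2.87, SE 0.65, limma adjusted p = 0.0287). These were 2 of the 6 members, where 12.2% of all transcripts were called in either direction. In DMSO epidermis MMP13-C was listed for its changes from 0 and 3 dpa to 8 dpa, and MMP9 for its changes from 0 dpa. Both tests therefore use values that chose these transcripts. The other members were not called: MMP2 was at 44.4 and 28.0 TPM with MS-275, against 63.2 and 62.0 TPM with DMSO (log2 fold change -0.83, SE 0.31, limma adjusted p = 0.122). MMP13-A was at 130 and 91.1 TPM with MS-275, against 107 and 148 TPM with DMSO, and these groups overlapped. MMP13-B was at 19.7 and 7.83 TPM with MS-275, against 6.05 and 5.09 TPM with DMSO, and MMP13-D at 1.16 and 0.35 TPM, against 2.25 and 2.1 TPM.

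Most transcripts moved down in this comparison on the TPM scale: the median log2 fold change over all transcripts was -0.48, and 46.4% were lower in both MS-275 samples than in both DMSO samples. Rescaling the samples by median ratios brought that median to 0.03, kept the MMP9 call and ended the MMP13-C call (limma adjusted p = 0.108), and the MMP13-C call was also lost without any 1 of the 4 samples compared. The MMP9 call was also lost without DMSO replicate 1 (limma adjusted p = 0.0728) or without either MS-275 replicate (0.0527 and 0.0560). Leukocyte markers summed to 1299 and 1223 TPM in MS-275 epidermis, against 1841 and 1683 TPM in DMSO epidermis, with 8 of 30 called lower and 2 higher. Osteoclast markers were at 186 and 127 TPM, against 234 and 224 TPM, with 1 of 8 called lower. Muscle markers were higher, at 97.8 and 213 TPM, against 0.84 and 1.71 TPM, with 6 of 17 called. Cartilage markers were at 184 and 230.4 TPM, against 124 and 112 TPM, with 2 of 16 called higher, and the part of these markers in the MMP values was not tested.

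In ST at 8 dpa, 1 member was called. MMP13-C fell to 1.39 and 1.69 TPM in MS-275 ST, against 11.6 and 10.3 TPM in DMSO ST, 6.77-fold lower (log2 fold change -2.76, SE 0.45, limma adjusted p = 0.0399), where 0.826% of all transcripts were called lower and 1.26% in either direction. MMP2 was at 124 and 118 TPM with MS-275, against 233 and 220.4 TPM with DMSO (log2 fold change -0.91, SE 0.28, limma adjusted p = 0.139). MMP13-A was at 149.7 and 183 TPM with MS-275, against 232 and 245 TPM with DMSO (log2 fold change -0.52, SE 0.47, limma adjusted p = 0.582). MMP13-B was at 18.8 and 22.1 TPM, against 39.6 and 35.6 TPM, and MMP13-D at 0.56 and 0.51 TPM, against 2.29 and 2.11 TPM. These 5 members were lower in both MS-275 samples than in both DMSO samples, as were 42.0% of all transcripts, and the median log2 fold change of the 6 was -0.89, against -0.33 over all transcripts. The 8 dpa DMSO samples were a source of the symbols, so nothing is read from this count or median. MMP13-C was listed for its changes to 8 dpa in DMSO ST, so its test uses values that chose it.

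MMP9 differed from the other members in ST at 8 dpa in its direction. It was at 463 and 546 TPM in MS-275 ST, against 448 and 421 TPM in DMSO ST (log2 fold change 0.21, SE 0.46, limma adjusted p = 0.842), a difference smaller than its standard error. The MMP13-C call in ST was lost under the rescaling (limma adjusted p = 0.0752) and without any 1 of the 4 samples compared (0.194 to 0.283). Osteoclast markers summed to 1096 and 1518 TPM in MS-275 ST, against 2790 and 2621 TPM in DMSO ST, with 2 of 8 called lower, and fibroblast markers to 5494 and 4614 TPM, against 9155 and 9214 TPM, with 2 of 11 called lower. Muscle markers stood at 8075 and 7146 TPM, against 2564 and 2971 TPM, with 0 of 17 called, epidermis markers at 136 and 133.5 TPM, against 509.8 and 488 TPM, and the part of these markers in the MMP values was not tested.

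**Figure D2:**
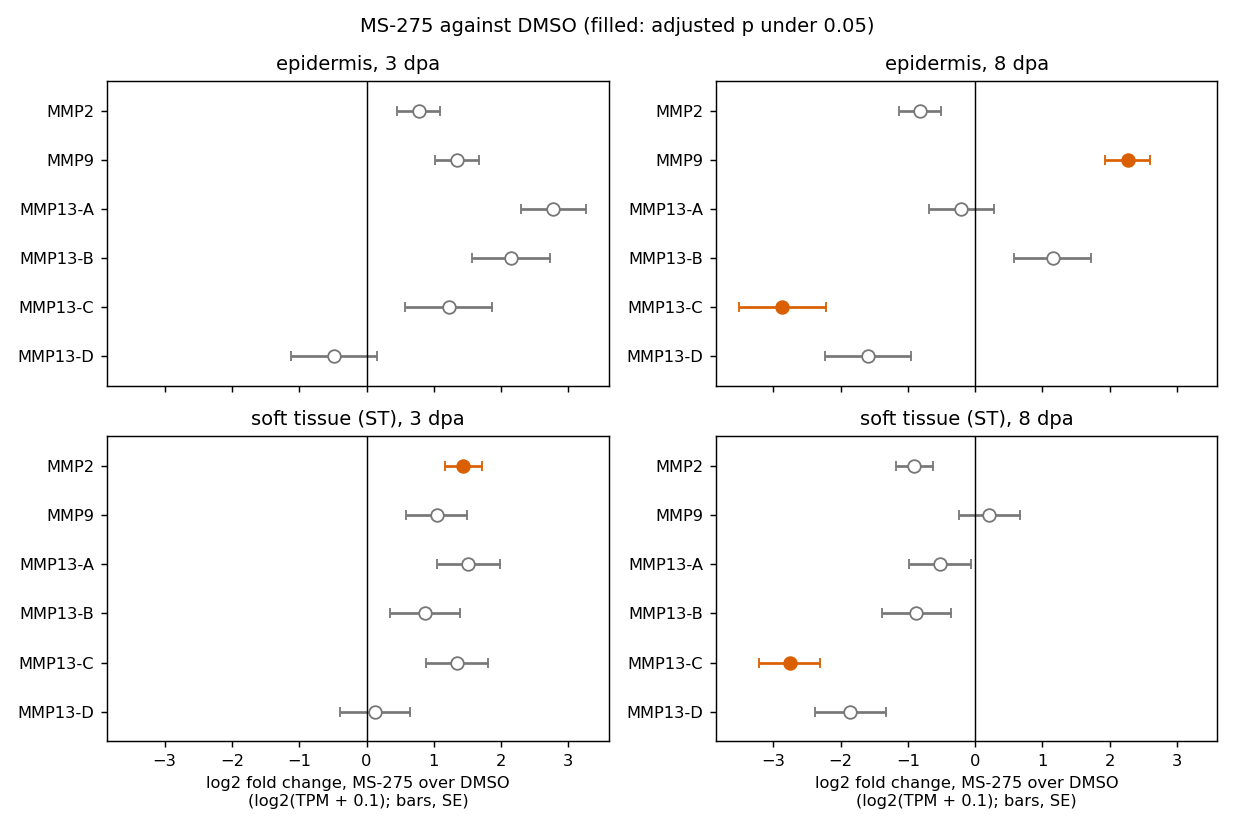
Log2 fold change of MS-275 over DMSO (x axis, on log2(TPM + 0.1)) for the 6 MMP transcripts (y axis) in each tissue and at each time, with the standard error as bars and filled orange points where the limma adjusted p was under 0.05. At 3 dpa every point but that of MMP13-D in epidermis lay above 0, and at 8 dpa the called points were MMP9 (2.27) and MMP13-C (-2.87) in epidermis and MMP13-C (-2.76) in ST.

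Whether the MS-275 effect changed between the times was tested as the effect at 8 dpa minus the effect at 3 dpa. In ST the difference was -2.34 for MMP2 (log2 units, SE 0.39, limma adjusted p = 0.0400) and -4.11 for MMP13-C (SE 0.64, limma adjusted p = 0.0370), 2 of 6 members, where 1.24% of all transcripts were called in either direction. In epidermis the difference was -4.10 for MMP13-C (SE 0.92, limma adjusted p = 0.0469), against 4.50% of all transcripts called, and -2.99 for MMP13-A (SE 0.69, limma adjusted p = 0.0507). For MMP9 it was -0.83 in ST (SE 0.64, limma adjusted p = 0.569) and 0.92 in epidermis (SE 0.47, limma adjusted p = 0.278). The DMSO change between 3 and 8 dpa is part of each such difference, and it was also a source of the symbols, so these calls are not independent of how the members were chosen, and nothing is read from their number. The DMSO change from 3 to 8 dpa was itself 1.94 for MMP2 and 5.25 for MMP13-C in ST and 5.82 for MMP13-C in epidermis (log2 units). All 3 calls were lost with no filter on low values (limma adjusted p from 0.0505 to 0.0625), and after rescaling.

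The time course within MS-275 limbs compares none of the samples that the lists compared. The authors fitted all samples of a tissue together, so MS-275 samples entered the spread behind those lists. All members but MMP9 were listed for a change from 3 to 8 dpa in DMSO ST. This time course is therefore not independent of how the members were chosen. No member was called by limma between 8 and 3 dpa in either tissue. Of all transcripts, 0.0366% were called in ST and 0.0363% in epidermis. Without adjustment 4 of 6 members had a limma p under 0.05 in each tissue. That rule is looser than the one behind those shares, so they are not compared. MMP9 was at 463 and 546 TPM at 8 dpa, against 175 and 232 TPM at 3 dpa, in MS-275 ST (log2 fold change 1.32, SE 0.46, limma adjusted p = 0.305). In MS-275 epidermis MMP9 was at 143 and 122 TPM at 8 dpa, against 51.3 and 51.0 TPM at 3 dpa (log2 fold change 1.37, SE 0.33, limma adjusted p = 0.190). MMP13-B was at 18.8 and 22.1 TPM at 8 dpa, against 3.64 and 4.78 TPM at 3 dpa, in MS-275 ST, and at 19.7 and 7.83 TPM, against 1.69 and 0.69 TPM, in MS-275 epidermis. MMP2 alone was lower at 8 dpa in MS-275 ST, at 124 and 118 TPM, against 205 and 125 TPM at 3 dpa (log2 fold change -0.41, SE 0.28, limma adjusted p = 0.639). Both 8 dpa samples lay above both 3 dpa samples for 5 of the 6 members in each tissue, against 22.1% of all transcripts in ST and 15.7% in epidermis. Given how the members were chosen, nothing is read from these counts.

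The MS-275 limbs were also compared with the intact limb, whose 0 dpa samples are shared with the lists that gave the symbols, so nothing is read from the counts of members called against it. In ST at 3 dpa, 5 of 6 members were called higher (not MMP13-D), against 18.0% of all transcripts, and at 8 dpa all 6, against 16.8%. MMP2 in ST was 4.26-fold above 0 dpa at 3 dpa (log2 fold change 2.09, SE 0.28, limma adjusted p = 0.00173) and 3.22-fold above it at 8 dpa (1.69, SE 0.28, limma adjusted p = 0.00452), and the second call was lost after rescaling (adjusted p = 0.123), as was that of MMP13-D at 8 dpa (0.0560). MMP9 in ST was 60.7-fold above 0 dpa at 3 dpa (log2 fold change 5.92, SE 0.46) and 151-fold at 8 dpa (7.24, SE 0.46). The median log2 fold change over all transcripts was itself 0.61 at 3 dpa and 0.62 at 8 dpa, and rescaling brought both to 0.04. After rescaling the log2 fold change of MMP2 at 8 dpa was 0.80, so part of these folds depends on the scaling.

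In MS-275 epidermis, MMP9, MMP13-A and MMP13-B were called higher than 0 dpa at 3 dpa, against 4.12% of all transcripts, and at 8 dpa every member except MMP2, against 3.48%. MMP9 was above 0 dpa at 3 dpa (log2 fold change 3.70, SE 0.33, limma adjusted p = 0.00180) and 33.6-fold above it at 8 dpa (5.07, SE 0.33, limma adjusted p = 0.000304). MMP13-A in epidermis was at 80.9 and 40.0 TPM at 3 dpa and at 130 and 91.1 TPM at 8 dpa with MS-275, against 0.93 and 0.62 TPM at 0 dpa. MMP2 was at 44.4 and 28.0 TPM in MS-275 epidermis at 8 dpa, against 19.4 and 21.4 TPM at 0 dpa, and was not called. The calls of MMP13-B at 3 dpa (limma adjusted p = 0.138) and of MMP13-D at 8 dpa (0.0841) were lost with a pseudocount of 1, and those of MMP13-B at 3 dpa and of MMP13-C and MMP13-D at 8 dpa without single samples (0.0576 to 0.190).

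Between the tissues, the gelatinases were lower in epidermis than in ST after amputation. The epidermis samples also held fibroblast markers. These summed to 1498 and 3864 TPM in epidermis at 0 dpa, against 1170 and 1410 TPM in ST. At 8 dpa with DMSO they summed to 1876 and 1899 TPM in epidermis, against 9155 and 9214 TPM in ST. The part of these markers in the MMP values was not tested. Both tissues were taken from the limbs of the same animals, but the labels do not tie an epidermis sample to an ST sample, so the model treats them as independent. The 0 dpa and DMSO samples were also a source of the symbols. The tests on them are therefore not independent of how the members were chosen, and nothing is read from counts of members called between the tissues. MMP9 differed most: at 8 dpa with DMSO it was at 24.4 and 30.6 TPM in epidermis, against 448 and 421 TPM in ST (15.8-fold lower, log2 fold change -3.98, SE 0.43, limma adjusted p = 4.96e-05). At 8 dpa with MS-275 it was at 143 and 122 TPM in epidermis, against 463 and 546 TPM in ST (3.80-fold lower, log2 fold change -1.93, SE 0.43, limma adjusted p = 0.00990). At 3 dpa the MMP9 difference was -2.28 with DMSO (SE 0.43, limma adjusted p = 0.00240) and -1.98 with MS-275 (SE 0.43, limma adjusted p = 0.00969). At 0 dpa MMP9 was at 2.82 and 5.19 TPM in epidermis, against 3.12 and 3.33 TPM in ST, and the groups overlapped.

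MMP2 was lower in epidermis than in ST at 8 dpa with DMSO (-1.86, SE 0.31, limma adjusted p = 0.00102), at 8 dpa with MS-275 (-1.78, SE 0.31, limma adjusted p = 0.00214) and at 3 dpa with MS-275 (-1.80, SE 0.31, limma adjusted p = 0.00272). MMP2 was listed only for its change from 3 to 8 dpa in DMSO ST, so its 3 and 8 dpa DMSO tests use values that chose it. With DMSO at 3 dpa, 4 of 6 members (MMP2, MMP9, MMP13-A and MMP13-B) were called lower in epidermis, against 7.90% of all transcripts, and at 8 dpa 3 (MMP2, MMP9 and MMP13-B), against 8.49%. With MS-275, MMP2 and MMP9 were called lower at both times, against 6.80% of all transcripts at 3 dpa and 6.43% at 8 dpa. At 0 dpa MMP13-A was called higher in epidermis, at 0.93 and 0.62 TPM, against 0.18 and 0 TPM in ST, where 17.0% of all transcripts were called higher, and the call was lost with a pseudocount of 1 (limma adjusted p = 0.281). The 3 dpa DMSO calls of MMP2 and MMP13-A were lost after rescaling (limma adjusted p = 0.0786 and 0.0779), and the MS-275 calls of MMP9 without single samples (0.0560 to 0.0837).

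The difference in the MS-275 effect between the tissues was tested as epidermis minus ST. At 8 dpa it was 2.06 for MMP9 (log2 units, SE 0.61), with an unadjusted limma p of 0.00464 and an adjusted p of 0.313, and no member was called at either time. Without adjustment 2 of the 6 members at 8 dpa and 0 at 3 dpa had a limma p under 0.05. At the stricter adjusted threshold, which is not comparable with those counts, 0.0455% of all transcripts were called at 8 dpa and 0.417% at 3 dpa. A MMP9 response particular to epidermis is therefore not shown by these samples. At 3 dpa the MMP9 difference was 0.30 (SE 0.61, limma adjusted p = 0.912).

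Ordered by level, MMP9 stood highest in 8 dpa MS-275 ST (504 ± 58.7 TPM, SD, n = 2), followed by 8 dpa DMSO ST (434.5 ± 19.0), 3 dpa MS-275 ST (204 ± 40.2) and 8 dpa MS-275 epidermis (132 ± 15.3). The ranges of 8 dpa MS-275 epidermis and 3 dpa DMSO ST (114 ± 83.8) overlapped, as did those of 8 and 3 dpa DMSO epidermis and those of the 0 dpa samples. MMP2 stood highest in 8 dpa DMSO ST, then 3 dpa MS-275 ST and 8 dpa MS-275 ST (121 ± 3.73), and from the fourth place down, beginning with 8 dpa DMSO epidermis (62.6 ± 0.90), each group's range overlapped that of the next. MMP13-A stood highest in 8 dpa DMSO ST (238 ± 9.11), then 8 dpa MS-275 ST (166 ± 23.5) and 8 dpa DMSO epidermis (127 ± 29.2), which overlapped 8 dpa MS-275 epidermis (110.4 ± 27.2), and this in turn 3 dpa MS-275 ST (89.7 ± 30.6). MMP13-B stood highest in 8 dpa DMSO ST (37.6 ± 2.86), then in 8 dpa MS-275 ST (20.5 ± 2.36), which overlapped 8 dpa MS-275 epidermis (13.8 ± 8.42). MMP13-C and MMP13-D stood at 10.98 ± 0.93 and 2.20 ± 0.13 TPM in 8 dpa DMSO ST and at 9.39 ± 1.45 and 2.18 ± 0.11 TPM in 8 dpa DMSO epidermis, and every other group was below 2 TPM in both replicates for each of them.

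The 4 MMP13 transcripts did not change in proportion. MMP13-A made up most of the summed TPM of these 4 transcripts in every group after amputation, from 81.2% to 98.1% of it. The 2 lower-case mmp13 transcripts are not part of that sum, so these are not shares of all MMP13. MMP13-C made up 0.82% of the sum in both MS-275 ST samples at 8 dpa, against 4.08% and 3.53% in DMSO ST. In epidermis at 8 dpa MMP13-C made up 1.25% and 0.73% with MS-275, against 8.31% and 5.11% with DMSO. MMP13-B went the other way in epidermis, with 12.95% and 7.83% of the sum with MS-275 at 8 dpa, against 4.83% and 3.11% with DMSO. A share within a sample does not depend on how the samples are scaled to each other, and with 2 samples a group these differences carry no test. The sum of the 4 transcripts, which MMP13-A dominates, was at 170.4 and 207 TPM in 8 dpa MS-275 ST, against 285 and 293 TPM in DMSO ST (log2 fold change -0.62, SE 0.37, limma adjusted p = 0.400). With the lower-case mmp13 transcripts added it was at 289 and 366 TPM, against 625 and 607 TPM (log2 fold change -0.92, SE 0.45, limma adjusted p = 0.311).

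**Figure D3:**
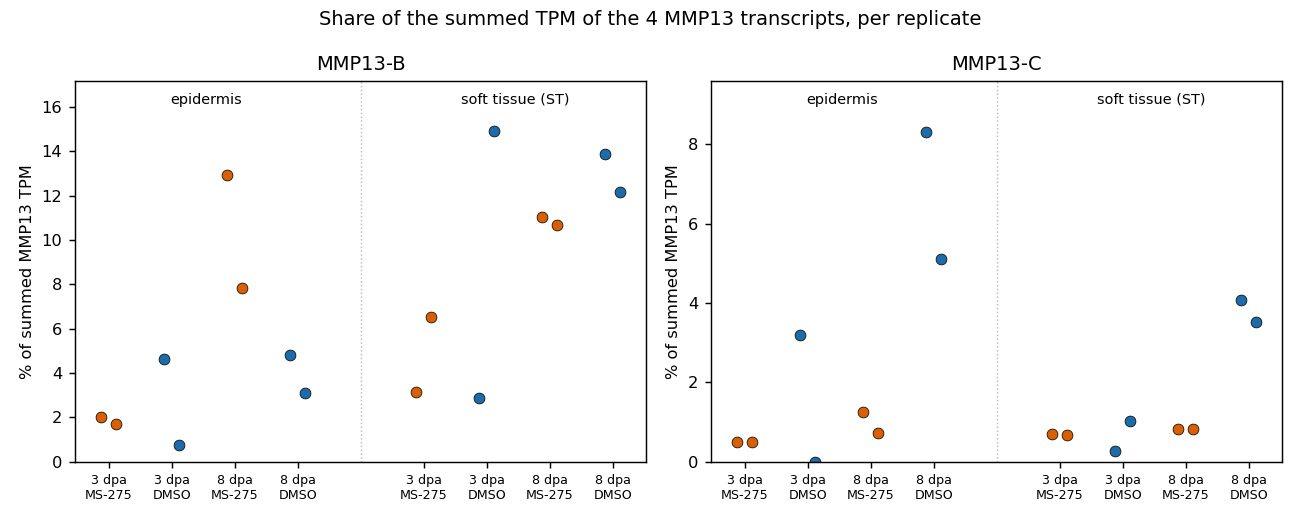
Share (%) of the summed TPM of the 4 MMP13 transcripts taken by MMP13-B (left panel) and MMP13-C (right panel) in each replicate after amputation, in epidermis and ST, with MS-275 in orange and DMSO in blue. At 8 dpa MMP13-C took 0.73% to 1.25% in MS-275 epidermis and 5.11% to 8.31% in DMSO epidermis.

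Of the rest of the family, 21 transcripts of 9 other or lower-case MMP symbols were paired. Their symbols came from the same lists of changes in DMSO samples, so nothing is read from the counts called beside the shares of all transcripts. With MS-275 at 3 dpa, 5 were called higher and 0 lower in ST, and 4 higher and 0 lower in epidermis, where 3.48% of all transcripts were called in ST and 0.418% in epidermis. At 8 dpa 1 was called higher and 1 lower in ST, and 4 were called higher and 4 lower in epidermis, against 1.26% and 12.2% of all transcripts in those tissues. The calls higher were of mmp18, a collagenase described in the frog Xenopus, and of 1 lower-case mmp13 transcript. The mmp18 transcript AMEXTC_0340000236829 was at 257 and 534.5 TPM in MS-275 ST at 3 dpa, against 10.2 and 33.1 TPM in DMSO ST (limma adjusted p = 0.0143). The mmp18 transcript AMEXTC_0340000069776 was at 30.3 and 75.2 TPM in MS-275 ST at 3 dpa, against 0 and 0.43 TPM in DMSO ST (limma adjusted p = 0.00801). The same MS-275 ST samples held summed epidermis markers at 1106 and 3039 TPM, against 62.45 and 155 TPM in DMSO ST. The part of these markers in the mmp18 values was not tested.

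The calls lower at 8 dpa included enzymes best known from leukocytes and epithelia. Mmp8, the neutrophil collagenase, was listed at 0 in both MS-275 epidermis samples at 8 dpa, against 71.2 and 67.8 TPM in DMSO epidermis (limma adjusted p = 0.00705). MMP7, matrilysin, in its transcript AMEXTC_0340000049156, was at 0.07 and 0.20 TPM in MS-275 ST at 8 dpa, against 29.2 and 26.4 TPM in DMSO ST (limma adjusted p = 0.00640). In the same epidermis samples MMP9 was higher with MS-275. Which cells carried MMP9 or Mmp8 was not tested. A further 2 mmp18 transcripts were called lower in epidermis at 8 dpa, one of them at 19.4 and 31.2 TPM with MS-275, against 202 and 172 TPM with DMSO, so mmp18 transcripts were called in both directions there. MMP14, the activator of proMMP2, was at 72.8 and 72.0 TPM in MS-275 ST at 8 dpa, against 145 and 146 TPM in DMSO ST, and was not called (limma adjusted p = 0.0638). At 3 dpa MMP14 was at 63.3 and 47.5 TPM in MS-275 ST, against 38.0 and 43.9 TPM in DMSO ST. The lower-case mmp13 transcript AMEXTC_0340000027546 was at 115.5 and 154 TPM in MS-275 ST at 8 dpa, against 335 and 310 TPM in DMSO ST.

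The inhibitors were represented by 4 transcripts, 2 of TIMP1, 1 of timp3 and 1 of RECK. They too were named by the lists of changes in DMSO samples, so nothing is read from their counts. At 8 dpa 2 of the 4 were called higher with MS-275 and 0 lower in ST, and 2 higher and 1 lower in epidermis, and at 3 dpa 1 was called higher in ST and 0 in epidermis. Over all transcripts 1.26% were called in ST and 12.2% in epidermis at 8 dpa, and 3.48% in ST and 0.418% in epidermis at 3 dpa. TIMP1 in its abundant transcript (AMEXTC_0340000160732) was at 637 and 761 TPM in MS-275 ST at 8 dpa, against 189 and 181 TPM in DMSO ST, 3.76-fold higher (log2 fold change 1.91, SE 0.32, limma adjusted p = 0.0411). In epidermis at 8 dpa this TIMP1 transcript was at 243 and 296 TPM with MS-275, against 42.0 and 59.4 TPM with DMSO, 5.36-fold higher (log2 fold change 2.42, SE 0.37, limma adjusted p = 0.00905). In the same epidermis samples MMP9 was 4.82-fold higher, so the enzyme and this inhibitor were both above DMSO. At 3 dpa it stood at 497 and 709 TPM in MS-275 ST, against 207 and 238 TPM in DMSO ST (limma adjusted p = 0.0548).

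The timp3 transcript was called higher with MS-275 in ST at both times and in epidermis at 8 dpa. It was at 41.5 and 37.1 TPM in MS-275 ST at 3 dpa, against 8.44 and 9.75 TPM in DMSO ST (4.29-fold higher, limma adjusted p = 0.00304). At 8 dpa timp3 was at 30.8 and 29.5 TPM in MS-275 ST, against 5.06 and 4.72 TPM in DMSO ST (6.07-fold higher, limma adjusted p = 0.00142). The second TIMP1 transcript (AMEXTC_0340000014899) was lower in epidermis at 8 dpa, at 2.82 and 3.09 TPM with MS-275, against 11.7 and 11.3 TPM with DMSO (limma adjusted p = 0.0114). RECK was at 7.71 and 7.72 TPM in MS-275 ST at 8 dpa, against 16.7 and 15.8 TPM in DMSO ST, and was not called (limma adjusted p = 0.0546).

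**Figure D4:**
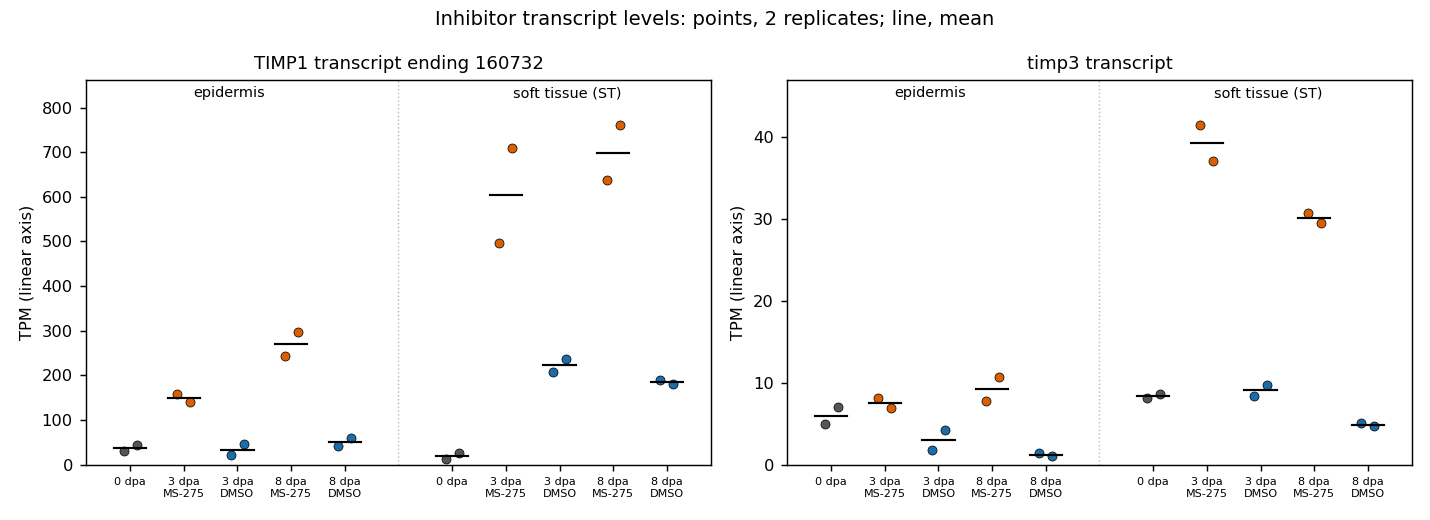
TPM (linear axis) of the abundant TIMP1 transcript (left panel) and the timp3 transcript (right panel) in epidermis and ST, with 2 replicates as points and their mean as a line, MS-275 in orange, DMSO in blue and 0 dpa in grey. TIMP1 reached 637 and 761 TPM in MS-275 ST at 8 dpa, against 189 and 181 TPM in DMSO ST.

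Across the 20 samples, the levels of the 6 members were positively correlated with each other, and the points share libraries, tissues and times. The members and the named transcripts compared with them were all listed for changes over time in DMSO samples. These correlations are therefore not independent of that choice and are given as a description. Pearson's r on log2(TPM + 0.1) was 0.79 for MMP2 with MMP9 (0.84 over the 10 ST samples and 0.56 over the 10 epidermis samples), 0.88 for MMP9 with MMP13-A and 0.90 for MMP13-C with MMP13-D. Among 3903 named transcripts of other symbols with a mean of at least 1 TPM (3901 for MMP13), those most like MMP2 were Emilin1, a protein of elastic fibres (r = 0.97), Itga11, a subunit of a collagen-binding integrin (0.97), and loxl2, an enzyme that crosslinks collagen (0.97). The transcript most like MMP9 was Cd27, a receptor of lymphocytes (0.98). Those most like MMP13-A were both transcripts named for ACOD1, which makes itaconate in activated macrophages (0.97 each), and Hk2, a hexokinase (0.97). The closest to MMP13-B, MMP13-C and MMP13-D were Rgcc (0.93), ETV4 (0.93) and BATF2 (0.83).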

How the data were processed

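RNA from 20 pooled samples was sequenced, 2 replicates in each of 10 groups of tissue, time and injection. The deposited table holds TPM values for each transcript of an axolotl transcriptome assembly. Per the submitters' processing notes, the authors trimmed reads with cutadapt, aligned them with Bowtie2 and estimated TPM with RSEM. TPM sums to the same total in every sample and keeps no depth, so no counting error or floor can be given, and a transcript that takes a larger share lowers the others.

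Symbols came from the study's published lists of transcripts changed between times in DMSO samples, of which shortened copies were used. The members and all gene and marker lists were chosen with earlier results of these data known. Every column of the table was mapped to a sample, so 0 were left out.

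Differences were fitted on log2(TPM + 0.1) with limma 3.58.1 in R 4.3.3 (trended prior variance, two-sided, Benjamini-Hochberg adjustment over all transcripts tested), with 1 model per tissue and a model of all 20 samples for comparisons between tissues. A transcript was tested when 5 or more of the 10 libraries from a tissue held it above 0, which left 87546 in ST, 88139 in epidermis and 96627 in either. The fit was tested on simulated data. All 6 members were named. From each list of related genes, up to 4 called transcripts with the largest change were named, and the inhibitors in full. The transcripts most like a member were the 3 with the highest Pearson's r. Some transcripts that these rules pick are not reported here. The sources do not say that replicates came from separate cohorts, so p-values measure the spread between these samples. The alternatives were a pseudocount of 1, stricter or no filtering, rescaled TPM, no variance trend, a replicate block, 1 model of all samples, summed MMP13 and leaving out each replicate.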

Additional observations from a re-analysis of the deposited data

Results flagged for a closer look

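The test of the change of the MS-275 effect with time passed the threshold for MMP2 and MMP13-C. The effect at 8 dpa minus the effect at 3 dpa was -2.34 for MMP2 in ST, -4.11 for MMP13-C in ST and -4.10 for MMP13-C in epidermis (log2 units). MMP2 in ST was at 124 and 118 TPM with MS-275, against 233 and 220.4 TPM with DMSO, at 8 dpa, and at 205 and 125 TPM, against 50.0 and 70.0 TPM, at 3 dpa. The DMSO change from 3 to 8 dpa, which is part of this difference (1.94 for MMP2 and 5.25 for MMP13-C in ST, 5.82 for MMP13-C in epidermis), was a source of the symbols, so the test is not independent of how the members were chosen. The median difference over all transcripts was -0.42 in ST and -0.66 in epidermis, which rescaling brought to -0.03 and 0.02, and no member was called in this test after rescaling.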

How the results depend on the processing

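The alternatives were followed for the 6 members and the summed MMP13 only. Whether calls of the related genes and cell type markers hold under them was not tested. Of 44 called results of members, 0 changed direction and 27 kept their call under every setting counted for them. Of the fits without a single replicate, only those that left out a replicate of the compared groups were counted. Fits without a replicate of another group also moved calls, so fewer may have kept their call under all fits. The counts of 44 and 27 enter MMP13-A a second time, set only against the summed MMP13 transcripts, where none of its calls was lost. The share that kept its call is therefore lower for single members alone. Over 961 values of 100 results, counted in the same way, 846 kept direction and side of the threshold, 84 lost the call, 21 gained it and 10 changed direction. Where a call was lost or gained, the cause was not tested. Among the settings that kept all samples, rescaling lost the most calls, 10, against 5 without the variance trend and 5 with the replicate block. After rescaling the median log2 fold change over all transcripts moved to 0.03 from -0.48 in epidermis at 8 dpa and to 0.01 from -0.33 in ST at 8 dpa, the share of higher calls was 63.2% and 78.3%, against 16.4% and 34.5% as deposited, and the number of transcripts called was 4374 and 466, against 10741 and 1103. Depth is unknown, and with 2 replicates a group the spread of 1 group rests on 1 difference.

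For MS-275 against DMSO in ST, 1 member was called at each time as deposited. At both times 2 were called with a pseudocount of 1, and 0 after rescaling, without the variance trend and with the replicate block. Without single replicates the number called was 0 to 3 at 3 dpa and 0 to 1 at 8 dpa. In epidermis at 3 dpa, 1 member instead of 0 was called with all 20 samples in 1 model and with transcripts under a mean of 1 TPM removed, and 0 to 1 without single replicates. In epidermis at 8 dpa, 1 instead of 2 was called after rescaling, and 0 to 2 without single replicates.

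Between 8 and 3 dpa with MS-275, 0 to 1 members were called in ST without single replicates, and in epidermis 1 with all 20 samples in 1 model. Against 0 dpa, MS-275 epidermis at 3 dpa gave 5 calls instead of 3 with all 20 samples in 1 model and 2 to 4 without single replicates, and at 8 dpa 3 to 5. Between epidermis and ST at 0 dpa, 0 instead of 1 were called when the pseudocount was 1, 2 when low transcripts (mean TPM under 1) were left out, 2 after rescaling and 0 to 2 without single replicates. At 3 dpa 2 instead of 4 were called with DMSO after rescaling, and without single replicates 2 to 4 with DMSO and 1 to 3 with MS-275, and at 8 dpa 1 to 2 with MS-275. For the change of the MS-275 effect with time, ST gave 4 instead of 2 calls with a pseudocount of 1, 1 without the variance trend, 0 with no filter, after rescaling and with the replicate block, and 0 to 4 without single replicates. Epidermis gave 2 instead of 1 with all samples in 1 model and when the pseudocount was 1, 3 when transcripts under a mean of 1 TPM were left out, 0 with no filter, after rescaling and without the variance trend, and 0 to 3 without single replicates. With the MMP13 transcripts summed, the epidermis change was -2.95 (limma adjusted p = 0.0469), and -3.10 (0.0344) with the mmp13 transcripts added.

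Directions changed only for differences that were not called. Without single replicates, MMP13-B in ST at 3 dpa ranged from -0.0524 to 1.80, MMP13-D in ST at 3 dpa from -0.34 to 0.59, MMP13-D in epidermis at 3 dpa from -0.98 to 0.0183, MMP13-A in epidermis at 8 dpa from -0.46 to 0.0449, and the tissue difference of the MMP9 effect at 3 dpa from -0.53 to 1.13. Rescaling gave 0.50 for MMP13-A in epidermis at 8 dpa, and a pseudocount of 1 gave 0.19 for the change of the MMP13-B effect in epidermis.

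The labels do not say whether samples with the same replicate number belong together, and the correlations below cannot exclude it. Deviations of samples with the same number had a median correlation of -0.002 within a tissue (highest 0.123 over 20 pairs) and of 0.064 across tissues (highest 0.147 over 5 pairs). With the replicate block MMP2 in ST at 3 dpa had a limma adjusted p of 0.0621 and MMP13-C in ST at 8 dpa of 0.0747.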

Other observations

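The matrix proteins that these enzymes cut, or that fill the blastema matrix, were counted in the same comparisons of MS-275 with DMSO. Only transcripts on the lists of changes between times in DMSO samples had symbols. The counts and medians below are therefore not independent of that choice, and nothing is read from them beside the values over all transcripts. In ST at 3 dpa 7 of 35 transcripts were called higher and 0 lower by limma (median log2 fold change 1.03, against 0.09 over all transcripts, of which 3.48% were called), and at 8 dpa 0 higher and 4 lower (median -1.12, against -0.33, with 1.26% called). In epidermis 0 of 33 were called at 3 dpa and 5 were called lower at 8 dpa, where 0.418% and 12.2% of all transcripts were called. At 3 dpa 4 of the 33 had an unadjusted limma p under 0.05, a looser rule than that share uses. Those called higher in ST at 3 dpa were all of collagens. A transcript of COL4A1, a chain of the type IV collagen that gelatinases cleave, was at 5.12 and 3.52 TPM with MS-275, against 0.20 and 0.89 TPM with DMSO (limma adjusted p = 0.0317), and one of Col4a1 at 1.1 and 1.49 TPM, against 0.17 and 0.09 TPM (0.0267). A transcript of col2a1, the fibrillar collagen of cartilage, was at 5.10 and 2.86 TPM, against 0.38 and 0.44 TPM (limma adjusted p = 0.00933), and another at 1.31 and 0.48 TPM, against samples listed at 0 (0.0269). Cartilage markers, which include col2a1, had 8 of 19 called higher there, and their part was not tested. VCAN, a large proteoglycan, was at 44.8 and 48.0 TPM in MS-275 ST at 8 dpa, against 156 and 154 TPM in DMSO ST (limma adjusted p = 0.0195). TNC, the tenascin of remodelling matrix, was at 139.9 and 178 TPM, against 390.1 and 395 TPM (limma adjusted p = 0.0344), and SPARC, a collagen-binding protein, at 10.3 and 20.2 TPM, against 94.1 and 57.0 TPM (0.0393). Summed fibroblast markers, several of them on this list too, were also lower there, and their part was not tested.

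Among 6 transcripts of MMP activation and pericellular proteolysis, Plaur was called lower with MS-275 in ST at 3 dpa, and BSG and Serpine2 lower in epidermis at 8 dpa. Of all transcripts, 3.48% were called in either direction in ST at 3 dpa and 12.2% in epidermis at 8 dpa. Both shares also apply to the transcription factors below. Symbols of both lists came from changes in DMSO samples, so nothing is read from the counts. Of 11 transcripts of transcription factors known to act on MMP promoters in mammals, Junb was called higher in ST at 3 dpa, at 159 and 155 TPM with MS-275, against 66.1 and 79.1 TPM with DMSO (limma adjusted p = 0.0229). In epidermis at 8 dpa Fosl1 was called higher, at 3.16 and 4.09 TPM, against 0.85 and 0.88 TPM (limma adjusted p = 0.0202), ETV4 lower, at 3.56 and 2.70 TPM, against 7.20 and 7.89 TPM (0.0237), and RUNX2 lower.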
